A study of Homo sapiens with 2 samples.

Results

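The p53 pathway genes described here were CDKN1A, MDM2, FDXR, ZMAT3, RPS27L, GDF15, SESN1, BAX and TP53I3, 9 of the 36601 genes in the deposited table, taken by their symbols. They were followed in PC9, a cell line from a human lung adenocarcinoma with mutant EGFR, in a pooled CRISPR experiment in which single cells were read for gene expression and for their sgRNA. The series holds 2 libraries of 1 culture, a gene expression library and an sgRNA capture library. Per the labels, the cells received a lentiviral sgRNA library at an infection rate near 40% with polybrene at 8 ug/ml, followed by puromycin at 1 ug/ml. The labels give both day 7 and day 8, so the day of harvest is not settled. They name gene knockout in some places and in others dCas9, the form of Cas9 that cannot cut DNA, so how the targets were perturbed is not settled either.

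Cells were compared in 2 ways. In the first, cells assigned to 1 sgRNA were grouped by its target: ATF4 (6 sgRNAs), CTCF (6), CTNNB1 (6), JUN (6), PGAM1 (4), MYC (2) or none (4 non-targeting control sgRNAs). All 7 groups are PC9 cells of the same pool that carried the same vector and drug selection and differed in the sgRNA sequence. In the second, cells with at least 3 UMIs (unique molecular identifiers, each standing for 1 captured transcript) summed over FABP5, MT1E, UBE2M and GTSF1, called positive cells below, were compared with all other cells, whatever their sgRNA. The 34 sgRNAs shared 1 culture, so every p-value is set by how sgRNAs of a group differ among themselves, and that spread can be technical.

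p53 is a transcription factor that is kept low by the ubiquitin ligase MDM2 and is stabilised by DNA damage and other stress. It binds DNA as a tetramer at a pair of 10-base half-sites and raises genes that halt the cell cycle, repair DNA, change metabolism or start cell death. Several members are also raised by other stress pathways, GDF15 through ATF4 among them.

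The RefSeq promoter windows (GRCh38.p14, 250 bases before to 50 bases after each annotated start) covered all 9 members in 16 windows. The p53 consensus, a 20-base palindrome of a pair of half-sites that reads the same on both strands, was searched with no spacer, at most 3 mismatches and all 4 core C and G letters kept. A match lay in at least 1 window of 5 of the 9 members (MDM2, FDXR, RPS27L, SESN1 and GDF15), whereas 1.12% of all 35116 windows and 1.37% of 27305 genes held one. The limit of 3 mismatches was set after matches had been seen, and a match is a likeness of letters, not a shown site. MDM2 and FDXR are shown because both were higher in the positive cells, RPS27L because it was higher by less, with the 150 bases before the start and the match in capitals. MDM2 is on the plus strand at chr12:68808867-68809016, before 1 of the downstream annotated starts that share this match (2 mismatches, the fewest of its windows). FDXR is on the minus strand at chr17:74872995-74873144 and RPS27L on the minus strand at chr15:63157478-63157627. For GDF15 the match alone is shown (plus strand, chr19:18386186-18386205), since it lies 29 to 48 bases into the transcript.
MDM2: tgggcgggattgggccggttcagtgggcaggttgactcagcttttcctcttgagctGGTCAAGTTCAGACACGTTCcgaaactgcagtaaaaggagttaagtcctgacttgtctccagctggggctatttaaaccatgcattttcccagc
FDXR: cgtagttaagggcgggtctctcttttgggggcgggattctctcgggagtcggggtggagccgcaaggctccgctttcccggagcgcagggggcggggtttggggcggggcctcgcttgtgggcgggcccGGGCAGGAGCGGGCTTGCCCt
RPS27L: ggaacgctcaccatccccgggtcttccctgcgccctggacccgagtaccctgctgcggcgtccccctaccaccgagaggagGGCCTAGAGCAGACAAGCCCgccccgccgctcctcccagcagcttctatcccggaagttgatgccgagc
GDF15: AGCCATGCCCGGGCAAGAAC
The windows of CDKN1A, BAX, ZMAT3 and TP53I3 held no match, which says only that these letters are not in these windows.

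After the cell filter, 10142 of 10847 barcodes remained, with a median of 12239.5 gene UMIs (1011 to 39824), and 5556 of them (54.8%) were assigned to 1 sgRNA. The 34 sgRNAs with at least 20 cells held 5530 cells, and their summed counts ran from 267726 to 6430143 UMIs. As a check of the labels, the transcript of the targeted gene was lower in its own sgRNAs for PGAM1 (log2 -1.66, edgeR adjusted p = 8.51e-24), CTNNB1 (-0.90, 9.97e-05) and ATF4 (-0.51, 6.62e-07). It did not pass the edgeR threshold for JUN (log2 -0.14), CTCF (-0.18) or MYC (0.62, adjusted p = 0.484). All 7 epithelial markers (EPCAM, KRT8, KRT18, KRT19, CDH1, EGFR and CEACAM6) were at 10 CPM (counts of a gene scaled to a common total of gene UMIs) or more in both positive and other cells, but EGFR, CEACAM6 and CDH1 were past 2-fold lower in the positive cells.

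No member rose or fell past the threshold with any of the 6 targets against the control sgRNAs (edgeR quasi-likelihood test, adjusted p under 0.05 over all genes). Of the 9 members, 8 were tested and SESN1, an inhibitor of mTORC1 signalling that p53 induces, stayed under the low-count filter. Over all 11570 genes tested, the share called was 1.75% for ATF4, 0.389% for PGAM1, 0.277% for MYC, 0.0259% for CTCF and 0.00864% each for CTNNB1 and JUN, so 0 of 8 is near the background in each comparison. At an unadjusted edgeR p under 0.05, 1 of 8 members was counted with ATF4 (GDF15), 1 with CTCF (RPS27L), 1 with MYC (GDF15) and 0 with the other targets, against 12.4%, 6.23% and 7.83% of all genes for these 3 targets and 4.3%, 4.63% and 8.72% for CTNNB1, JUN and PGAM1. The members' median log2 change lay between -0.02 and 0.07 over the 6 targets, and that of all genes between -0.04 and 0.01.

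CDKN1A (ENSG00000124762, chr6:36676463-36687332, GRCh38.p14 as for the genes below) encodes p21, the inhibitor of cyclin-dependent kinases through which p53 halts the cycle. Its level in the control sgRNAs was 5.94, 6.87, 7.96 and 7.71 CPM. With CTNNB1 it was 4.98 at the lowest, 9.99 at the median and 17.0 CPM at the highest of 6 sgRNAs, and with CTCF 4.80, 9.14 and 10.4 CPM. With ATF4 the lowest, median and highest were 5.01, 8.51 and 12.2 CPM, and with JUN 4.22, 7.43 and 9.82 CPM. The 4 PGAM1 sgRNAs gave 8.01, 4.06, 8.45 and 7.43 CPM, and the 2 MYC sgRNAs 7.47 and 4.13 CPM from 2 UMIs each. Every group therefore overlapped the controls. The change furthest from 0 was that with CTCF (log2 0.44 ± 0.23 SE, edgeR adjusted p = 0.842). The spread of CDKN1A over all 34 sgRNAs (coefficient of variation 31.7%) was close to that of counting alone (32.1%).

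MDM2 (ENSG00000135679, chr12:68808172-68850686), the ligase that marks p53 for destruction and is itself a p53 target, was measured at 11.1, 13.3, 9.94 and 8.67 CPM in the control sgRNAs. Its group means ran from 9.86 CPM (CTNNB1) to 13.5 CPM (JUN), and the 2 MYC sgRNAs gave 3.74 and 18.6 CPM from 1 and 9 UMIs. RPS27L (ENSG00000185088, chr15:63148249-63157477), a ribosomal protein paralog induced by p53, had 109, 102, 125 and 109 CPM in the controls and 114, 124 and 142 CPM as lowest, median and highest of the 6 CTCF sgRNAs. The CTCF and control values overlapped, and the change was log2 0.15 ± 0.07 (SE, edgeR adjusted p = 0.801). BAX (ENSG00000087088, chr19:48954875-48961798), which opens the outer mitochondrial membrane in apoptosis, had 140, 151, 156 and 159 CPM in the controls and 153, 164 and 173 CPM as lowest, median and highest with ATF4. Its log2 change with ATF4 was 0.09 ± 0.07 (SE), and its 95% interval was -0.04 to 0.22.

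FDXR (ENSG00000161513, chr17:74862497-74872994), the mitochondrial ferredoxin reductase, ranged over group means from 9.73 CPM (MYC) to 13.97 CPM (JUN). ZMAT3 (ENSG00000172667, chr3:179017223-179072513), an RNA-binding protein that acts in splicing, ranged from 9.40 CPM (CTNNB1) to 14.7 CPM (MYC). TP53I3 (ENSG00000115129, chr2:24077433-24084834), a quinone oxidoreductase, ranged from 9.16 CPM (ATF4) to 12.8 CPM (PGAM1), and SESN1 (ENSG00000080546, chr6:108984309-109094846) from 2.02 CPM (CTNNB1) to 4.77 CPM (MYC, 3 UMIs). None of these groups stood clear of the controls, as the plot of the members by sgRNA shows.

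**Figure D1:**
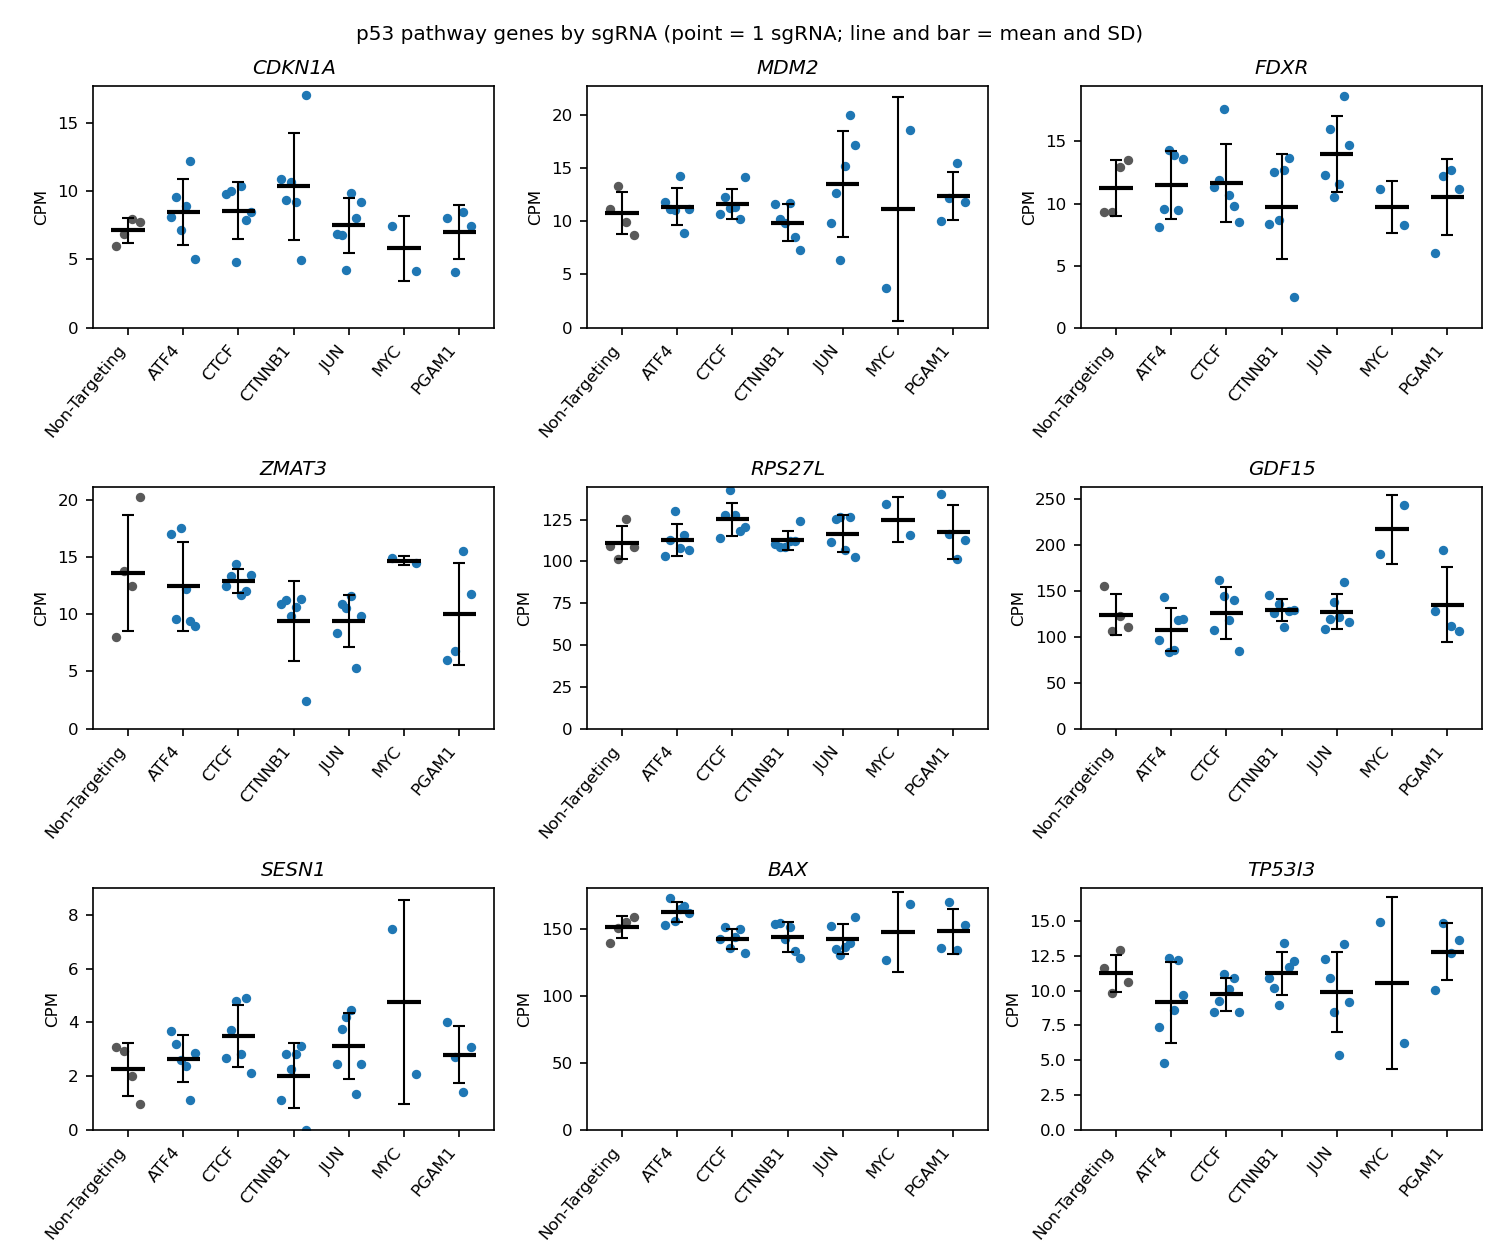
Level of each p53 pathway gene (CPM, axis from 0) by sgRNA group, with 1 point per sgRNA and the mean and SD drawn as lines and bars. GDF15 is the member with a group standing apart: the 2 MYC points are at 190 and 243 CPM, and 1 PGAM1 point, at 195 CPM, lies between them.

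GDF15 (ENSG00000130513, chr19:18386158-18389176), a secreted stress cytokine, was the member that varied among the 7 groups. The 4 control sgRNAs gave 156, 106, 123 and 111 CPM. The 2 MYC sgRNAs gave 190 and 243 CPM, above every control sgRNA. The 6 ATF4 sgRNAs gave 95.9, 143, 83.9, 85.4, 118 and 119 CPM, with 3 below every control. The lowest, median and highest were 84.8, 129 and 162 CPM with CTCF, 111, 128 and 146 CPM with CTNNB1, and 109, 120 and 160 CPM with JUN, and the 4 PGAM1 sgRNAs gave 128, 195, 111 and 106 CPM. These groups overlapped the controls.

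The edgeR test of any difference among the 7 groups passed for GDF15 (adjusted p = 0.00940) and for 0 of the 7 other members tested. That is 1 of 8 members, and 5.59% of all genes passed the same test. Against the controls, GDF15 differed by log2 -0.34 ± 0.12 (SE) with ATF4 and by 0.78 ± 0.22 (SE) with MYC, each at an edgeR adjusted p of 0.151. These estimates weight the sgRNAs by depth, so they differ from the ratio of the group means (108 ± 23.3 CPM with ATF4, SD, n = 6, and 124 ± 22.3 CPM in the controls, n = 4). The difference between the 2 targets was tested directly and was -1.12 ± 0.23 (SE) for ATF4 minus MYC (edgeR adjusted p = 0.00151). It was the 1 called among 168 tests of 8 members over the 21 pairs of groups, where 1.1% of all such tests passed and 1.24% of those between ATF4 and MYC. In the order of levels (ATF4, controls, CTCF, JUN, CTNNB1, PGAM1, MYC), 0 of 6 neighbouring groups differed past the edgeR threshold, the nearest being PGAM1 and MYC (adjusted p = 0.0909).

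The GDF15 result rested on few cells. The 2 MYC sgRNAs held 23 and 45 cells with 51 and 118 GDF15 UMIs, of which 12 and 29 came from 1 cell each. With the cell of most GDF15 UMIs left out of every sgRNA, the MYC sgRNAs stood at 151 and 189 CPM and the controls at 95.2 to 143 CPM, still without overlap. The share of cells with a GDF15 UMI was 60.9% and 66.7% in the MYC sgRNAs and 57.3% to 64.7% in the controls, and 52.2% to 57.3% with ATF4. The MYC cells were shallower (median 10319 and 9654 UMIs) than the control cells (12000 to 12656). The share scored as G1 was 69.6% in the MYC sgRNA of 23 cells, above the controls (54.5% to 62.3%). In the MYC sgRNA of 45 cells it was 62.2%, within the range of the controls. The part of depth and phase in the difference was not tested. ATF4 minus MYC also lost its call with a stricter sgRNA rule (log2 -0.76 ± 0.40 SE, edgeR adjusted p = 0.671) and in G1-scored cells alone (-0.80 ± 0.40 SE, 0.591). Without the MYC sgRNA of 45 cells, MYC is 1 sgRNA, assumed to vary like those of the other groups. The difference was then -0.85 ± 0.37 (SE, edgeR adjusted p = 0.514), and the adjusted p for the 7 groups was 0.198.

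**Figure D2:**
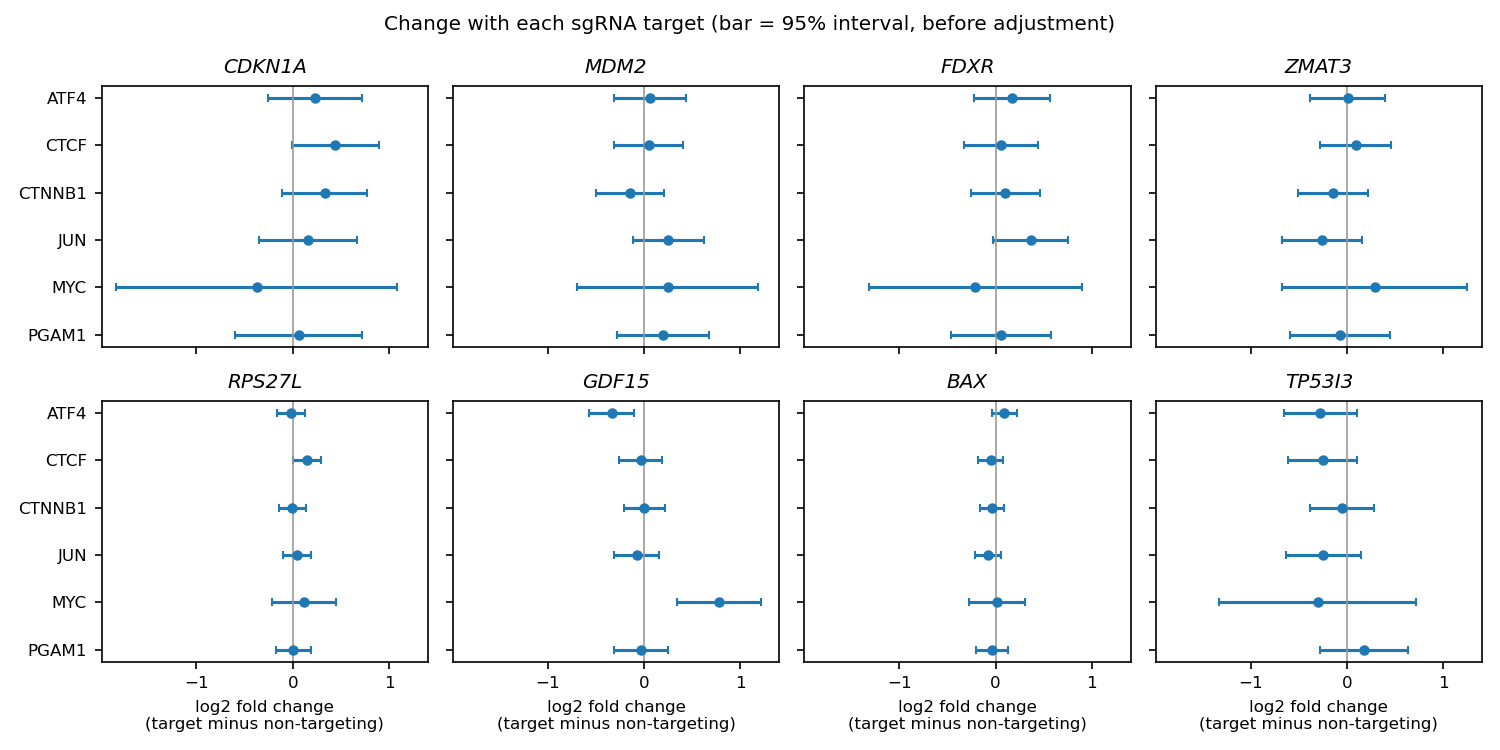
Log2 fold change of the 8 tested members for each target minus the non-targeting sgRNAs (x axis), with bars of 95% intervals from the standard error. The GDF15 intervals for ATF4 (-0.34) and MYC (0.78) leave out 0 before adjustment over all genes, as does that of RPS27L for CTCF (0.15), and the MYC bars are the widest for every member.

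The rest of the pathway gave no call either. In the 6 comparisons with the controls, edgeR called none of the tested p53 regulators MDM4, USP7, CDKN2A, HIPK2, ATM and CHEK2, 0 of 34 tested other p53 targets and 0 of 12 genes that p21 and the DREAM complex lower, such as CCNB1 and CDK1. The 34 targets had an unadjusted edgeR p under 0.05 in 5 cases with ATF4, 8 with PGAM1, 4 with JUN, 3 with MYC, 1 with CTNNB1 and 0 with CTCF. For the 12 cell cycle genes these were 7 with PGAM1, 6 with JUN, 3 with ATF4, 1 with CTNNB1 and 0 each with CTCF and MYC. Over all genes the shares at that p were 12.4% for ATF4, 8.72% for PGAM1, 4.63% for JUN, 7.83% for MYC, 4.3% for CTNNB1 and 6.23% for CTCF. The median of the cell cycle genes was log2 0.29 with PGAM1 and 0.28 with JUN, against 0.01 and 0.00 over all genes. The mean of the 6 targets against the controls gave 0 edgeR calls among all genes.

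Across the 34 sgRNAs, Pearson's r between the log2 levels of 2 members had a median of -0.06 over 36 pairs. It ranged from -0.46 (CDKN1A and SESN1) to 0.48 (FDXR and ZMAT3), a description over sgRNAs that share 1 library and differ in depth. The coefficient of variation was 28.1% for MDM2, 28.0% for FDXR, 31.2% for ZMAT3, 23.6% for TP53I3 and 48.2% for SESN1. Counting alone gave 26.2%, 26.3%, 26.7%, 28.7% and 57.4%. With so much of their spread from counting, as for CDKN1A, the r of these members cannot show whether they move together. GDF15 had a coefficient of variation of 25.3%, against 8.53% from counting. The corresponding figures were 9.29% and 8.66% for RPS27L and 8.74% and 7.45% for BAX. The 3 genes whose levels were most like that of GDF15, of 7707 compared, were THUMPD3-AS1 (r = 0.71), BSG (0.65) and CD9 (0.62). By Spearman's rho they ranked 6, 2 and 110.

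In the positive cells CDKN1A, FDXR, GDF15 and MDM2 were past 2-fold higher than in the other cells, RPS27L was 1.62-fold higher and BAX 1.42-fold lower. These were 338 cells (3.33%) against 9804, and 98.3% of the other cells had no UMI of the 4 genes. Each class is 1 set of cells from 1 culture, so there is no test, and the exact 95% intervals cover counting error only. Of 8 members at 10 CPM or more in either class, 4 were past 2-fold higher and 0 past 2-fold lower, whereas 9.81% of 8492 genes were past 2-fold higher and 10.7% past 2-fold lower. The members were chosen with earlier results of these data known, so their share beside that of all genes is a description only. The members' median log2 difference was 0.93 and that of all genes -0.05.

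CDKN1A stood at 52.5 CPM (45.5 to 60.2; 203 UMIs) in the positive cells and at 8.01 CPM (7.53 to 8.51; 1040 UMIs) in the others, a ratio of 6.55 (5.61 to 7.62). A CDKN1A UMI was found in 34.6% of positive and 9.29% of other cells, although the positive cells were shallower (median 9228.5 against 12291.5 UMIs). With every cell thinned to 5000 UMIs, which left out 14 positive and 219 other cells, the shares were 21.9% and 3.61%. No cell type known to lack the gene was in the culture to set a background for these shares.

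FDXR stood at 34.1 CPM against 11.3 CPM, a ratio of 3.01 (2.50 to 3.60). GDF15 stood at 286 against 122 CPM, a ratio of 2.35 (2.21 to 2.50), and MDM2 at 26.9 against 11.9 CPM, a ratio of 2.25 (1.83 to 2.75), whose interval reaches below 2. RPS27L stood at 185 against 114 CPM, a ratio of 1.62 (1.50 to 1.75). The 10 cells with most UMIs held 15.6% of the GDF15 UMIs and 24.6% of the CDKN1A UMIs of the positive cells, so most of each sum lay outside those 10 cells. CDKN1A UMIs were found in 117 of the 338 positive cells, with up to 9 in 1 cell. The ratios without the 10 cells were not computed.

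The other members did not share this direction. BAX stood at 106 against 150 CPM, a ratio of 0.707 (0.639 to 0.779). TP53I3 (ratio 1.16, 0.854 to 1.53), ZMAT3 (0.888, 0.629 to 1.22) and SESN1 (1.07, 0.546 to 1.88, under 10 CPM in both classes) had intervals that held 1.

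**Figure D3:**
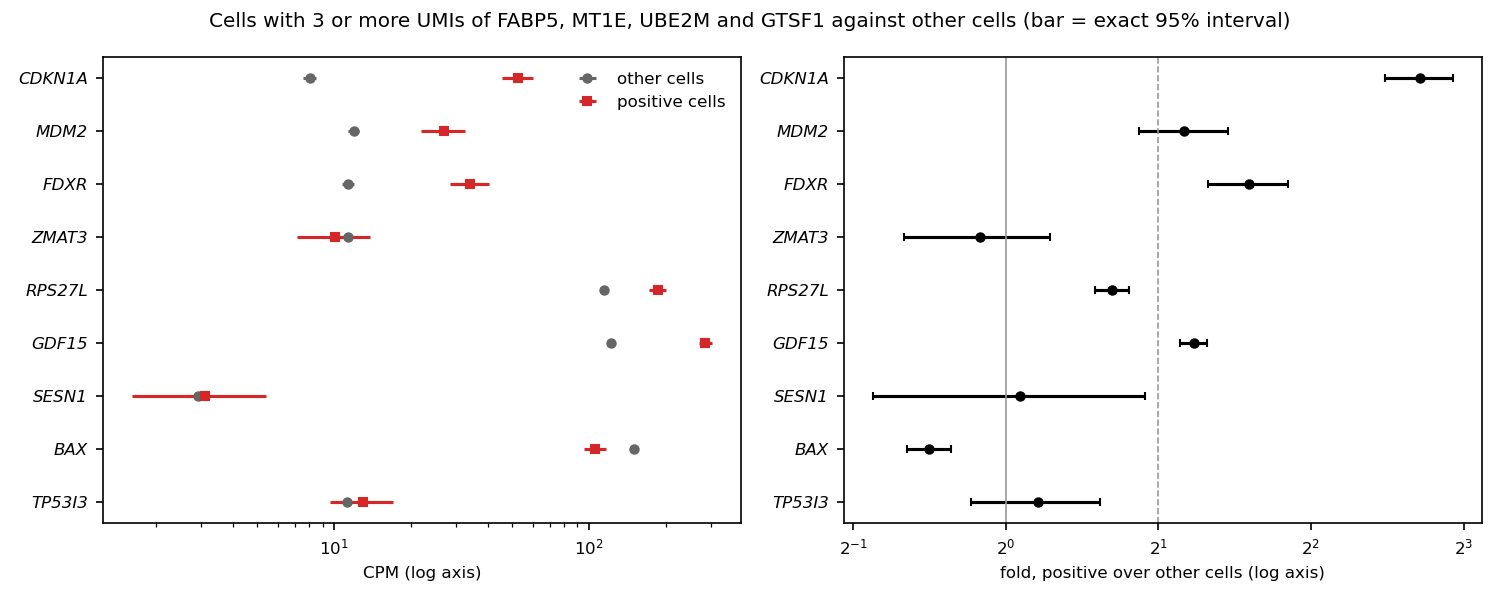
Left, level (CPM, log axis) of the members in positive and other cells; right, the ratio of the 2 levels (log axis), with lines at 1 and 2. Bars are exact 95% intervals of counting. CDKN1A, at 6.55, lies furthest to the right, and the whole interval of BAX, at 0.707, lies to the left of 1.

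The 4 members past 2-fold were also counted within single cells; since they were picked by these same cells, the shares are a description. In cells thinned to 5000 UMIs, 2 or more of CDKN1A, MDM2, FDXR and GDF15 had a UMI in 72, 14 and 1 positive cells (2, 3 and 4 members; 22.2%, 4.32% and 0.309%). In the other cells the corresponding shares were 5.20%, 0.313% and 0.0209%. None of the 4 had a UMI in 24.7% of positive and 55.7% of other cells.

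The levels followed the UMIs of the 4 defining genes in different ways. CDKN1A stood at 7.94, 10.5 and 23.3 CPM in cells with 0, 1 and 2 such UMIs, and at 26.7, 32.8, 61.7 and 66.3 CPM in cells with 3 to 5, 6 to 10, 11 to 15 and 16 or more. GDF15 stood at 122, 124 and 113 CPM below the threshold and at 273, 248, 327 and 278 CPM above it. FDXR stood at 11.3, 9.58 and 19.4 CPM below and at 34.9, 37.5, 29.1 and 36.1 CPM above. CDKN1A, GDF15 and FDXR were thus above their levels at 0 UMIs in all 4 bins past the threshold, and CDKN1A was highest in the upper 2. The median gene UMIs of the cells rose over these 4 bins (6717, 7295.5, 9094 and 11827), and the part of depth was not tested. MDM2 was at 4.11 CPM (0.497 to 14.8; 2 UMIs) in the bin of 3 to 5, below its level of 12.0 CPM at 0 UMIs, and at 22.1 to 39.4 CPM in the 3 bins above. The bins just under and over the threshold held 16 and 46 cells, so their intervals are wide.

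**Figure D4:**
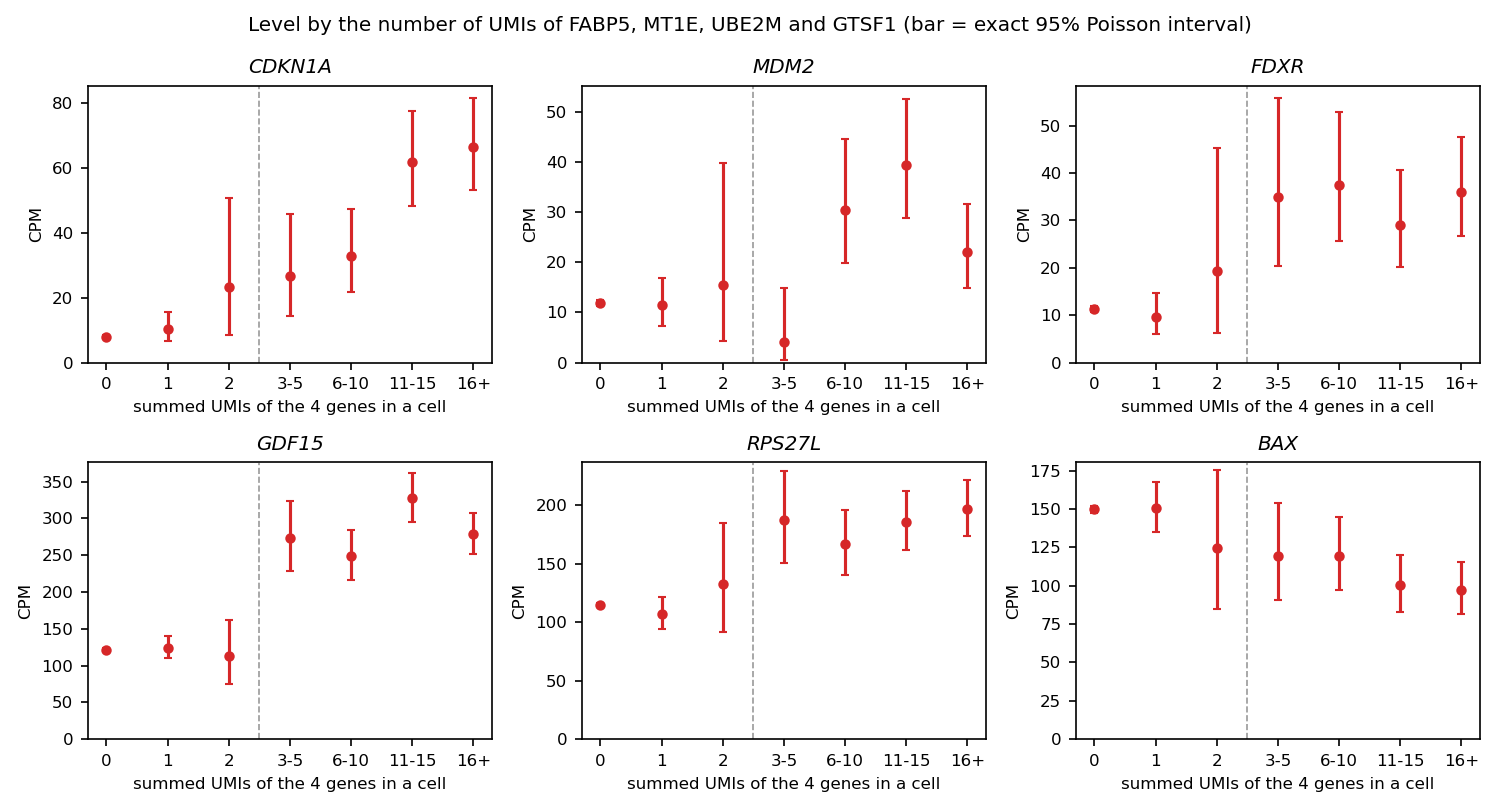
Level (CPM, axes from 0) of 6 members in cells binned by their summed UMIs of FABP5, MT1E, UBE2M and GTSF1, with exact 95% Poisson intervals; the dashed line marks the threshold of 3. CDKN1A reaches 61.7 and 66.3 CPM in the 2 upper bins, and BAX is at 97.2 CPM in the highest bin against 150 CPM at 0 UMIs.

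Scored phase differed between the classes: 32.5% of positive cells were scored G1, 27.2% S and 40.2% G2/M, against 58.0%, 9.45% and 32.6% of the others. Within each phase CDKN1A was still higher in positive cells, at 42.0 against 6.05 CPM in G1, 84.2 against 9.33 CPM in S and 40.6 against 10.3 CPM in G2/M. GDF15 was at 333 against 105 CPM in G1, 389 against 194 CPM in S and 199 against 124 CPM in G2/M, which is under 2-fold in G2/M. MDM2 and FDXR were at 28.6 and 32.5 CPM in positive G1 cells, against 10.6 and 10.8 CPM in other G1 cells. BAX was lower in positive cells in each phase, at 98.4, 95.9 and 116 CPM against 143, 175 and 152 CPM.

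**Figure D5:**
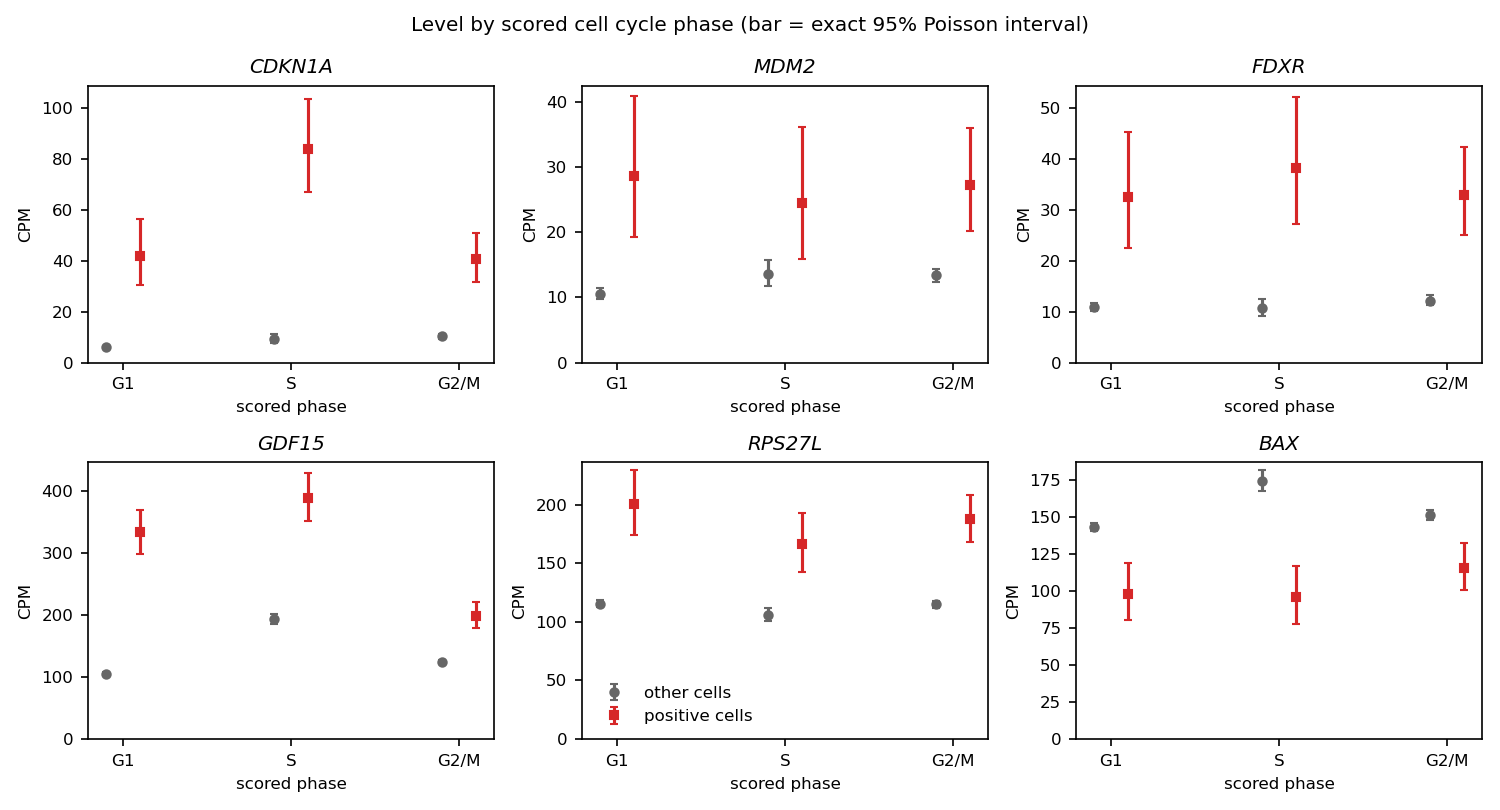
Level (CPM, axes from 0) of 6 members by scored cell cycle phase in positive cells (squares) and other cells (circles), with exact 95% Poisson intervals. CDKN1A, MDM2, FDXR, GDF15 and RPS27L lie higher and BAX lower in positive cells in all 3 phases.

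Other features of the positive cells moved with these levels. They held a median of 1 sgRNA UMI against 10, no sgRNA UMI was found in 46.2% of them against 9.84%, and 47 (13.9%) were assigned to an sgRNA against 56.2%. CDKN1A was at 26.0 CPM (15.9 to 40.1; 20 UMIs) in the 47 assigned and at 59.1 CPM in the 291 unassigned positive cells, whereas in other cells it was at 7.99 and 8.04 CPM. FDXR was at 37.7 and 33.3 CPM in the same 2 sets of positive cells. Among assigned cells, MDM2 was at 19.5 CPM (15 UMIs) in positive and 11.3 CPM in other cells. That ratio of 1.72 (0.960 to 2.86) was not past 2-fold, whereas CDKN1A (3.25), FDXR (3.28) and GDF15 (2.20) were. Among cells with no sgRNA UMI at all, CDKN1A was at 66.4 CPM in 156 positive and 9.89 CPM in 965 other cells. HBG2, a fetal globin, was at 12.9 against 0.162 CPM, while GATA1 and TAL1 were at 0 in both classes. The summed level of the 5 immune markers was 0.776 against 0.516 CPM. That of the 7 epithelial markers was 7433 against 9066 CPM, most of it from KRT18, KRT8 and KRT19. Of these 7, 3 were past 2-fold lower in positive cells, EGFR at 127 against 400 CPM (ratio 0.317), CEACAM6 at 16.04 against 60.7 CPM (0.264) and CDH1 at 23.5 against 51.0 CPM (0.461), and 0 were past 2-fold higher. Of the 7 mesenchymal markers, VIM was at 11.1 against 1.00 CPM (11.1-fold higher) and FN1 at 7.76 against 30.5 CPM, while COL1A2, DCN and LUM were at 0 in both classes. The part of sgRNA content and of these markers in the result was not tested.

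Depth and mitochondrial share gave further values. In cells of 10000 to under 15000 UMIs, CDKN1A was at 77.3 against 7.30 CPM, MDM2 at 37.3 against 12.0 CPM and GDF15 at 307 against 121 CPM in positive against other cells. In cells of 15000 UMIs or more these were 42.2 against 9.40, 17.3 against 12.5 and 226 against 126 CPM, so MDM2 and GDF15 were under 2-fold there. In the 219 other cells below 5000 UMIs, GDF15 was at 320 CPM (274 to 370; 177 UMIs), above the 286 CPM of all positive cells. Only 15.1% of those 219 cells had a GDF15 UMI. In other cells of 5000 to under 10000 UMIs GDF15 was at 105 CPM. The part of depth in the GDF15 difference was not tested. With at most 10% mitochondrial UMIs (111 positive and 4317 other cells), MDM2 was at 17.9 against 11.04 CPM and GDF15 at 248.7 against 139.5 CPM, so that 2 members (CDKN1A and FDXR) in place of 4 were past 2-fold.

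Among genes that act on p53, PPM1D, the phosphatase that dampens p53 signalling, was at 13.2 against 1.98 CPM, 6.66-fold higher in positive cells. CDKN2A, whose ARF product restrains MDM2, was at 295 against 670 CPM, a ratio of 0.441. MDM4 (0.981), USP7 (1.20), HIPK2 (1.06), ATM (1.22) and CHEK2 (0.696) were not past 2-fold.

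Of 39 other p53 targets, 29 were at 10 CPM or more in either class, of which 7 were past 2-fold higher and 1 lower, against 9.81% and 10.7% of all genes compared. Their median log2 difference was 0.40, and that of all genes -0.05. This list too was chosen with earlier results of these data known, so these shares are a description only. The highest ratio was that of KITLG, the ligand of the receptor KIT, at 97.3 against 3.33 CPM (29.2-fold). Of 11 compared targets listed for cell death, 4 were past 2-fold higher, PMAIP1 (NOXA) at 3.85, AEN (a nuclease) at 3.32, TRIAP1, which restrains apoptosis, at 2.62 and APAF1 (the apoptosome scaffold) at 2.43. The other 7 were not past 2-fold in either direction, among them BBC3 (PUMA), PERP and PHLDA3 with ratios of 0.980, 0.759 and 0.733. SFN (14-3-3 sigma), which holds cells in G2, was at 292 against 101 CPM (2.90-fold), and IKBIP was 5.20-fold higher. TP53TG1 was at 18.4 against 53.5 CPM, the 1 lower. None of the 3 DNA repair targets compared (DDB2, XPC and RRM2B) was past 2-fold.

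Of the 12 genes that p21 and the DREAM complex lower, 4 were past 2-fold higher (MKI67 at 2.65, BIRC5 at 2.33, CCNA2 at 2.32 and CDC20 at 2.25) and 0 past 2-fold lower, the lowest ratio being that of CDK1 (0.828). Over all genes compared, 9.81% were past 2-fold higher and 10.7% lower. The median log2 difference of the 12 was 0.52, a description as for the other lists, which were chosen with earlier results known. The larger G2/M share of the positive cells is not separate from these ratios. MKI67, BIRC5, CDC20, CDK1, TOP2A, CCNB2, AURKA and CDC25C are themselves among the genes by which G2/M was scored. The part of phase was not tested.

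Genes with a promoter match were past 2-fold higher about as often as the rest. Of 104 compared genes with a match, 8 (7.69%) were past 2-fold higher in positive cells, MDM2, FDXR, GDF15, AEN and PMAIP1 among them. Of 6706 compared genes with a window and no match, 9.42% were.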

How the data were processed

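The deposited table holds raw counts, whole numbers of UMIs per feature and cell barcode, which the authors obtained from Cell Ranger (version 6.1.2 per the file headers) and the build hg38 (per the submitters' processing notes). Whether doublets were removed before deposit is not stated. No columns of other series were found. Cells with at least 1000 gene UMIs, 500 genes and at most 20% mitochondrial UMIs were kept, and assigned to an sgRNA with at least 5 UMIs and 80% of the cell's sgRNA UMIs. No doublet caller was run here: assignment to 1 sgRNA guards the sgRNA comparisons only. Counts were summed per sgRNA (at least 20 cells) and compared with edgeR 4.0.16 in R 4.3.3 (quasi-likelihood test, TMM scaling, edgeR's low-count filter, 1 fit of 7 groups), with Benjamini-Hochberg adjustment over all genes of a comparison and a threshold of 0.05. The method was tested on simulated data. Classes defined by the 4 genes were compared as CPM of summed counts, with exact 95% Poisson or conditional binomial intervals, which cover counting error only. Cells were scored for phase with scanpy 1.11.5. Of 36601 gene identifiers, 36366 were matched to the reference table. DESeq2 1.42.0 was one alternative. All 9 members are named, as are list genes past the threshold or, between classes, past 2-fold at 10 CPM or more. Levels most like a member's are given where its test of the 7 groups passed. The members and gene lists were chosen with earlier results of these data known.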

Additional observations from a re-analysis of the deposited data

Results flagged for a closer look

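The GDF15 difference between ATF4 and MYC sgRNAs (log2 -1.12, edgeR adjusted p = 0.00151) was the 1 contrast between targets called for a member by a direct test. It lost its call with a stricter sgRNA rule (-0.76, edgeR adjusted p = 0.671), in G1-scored cells alone (-0.80, 0.591) and without MYC_sgRNA4 (-0.85, 0.514). Among 54 groups of 4 to 6 sgRNAs checked, 3 members had 1 sgRNA far from the others of its group, and chance gives about 1 in 20. FDXR was at 17.6 CPM (11 UMIs) in CTCF_sgRNA3, the next highest CTCF sgRNA being at 11.9 CPM. CTNNB1_sgRNA6, with 32 cells, was lowest for ZMAT3 (2.43 CPM, 1 UMI, the next being 9.83 CPM) and highest for RPS27L (124 CPM, 51 UMIs, the next being 112 CPM).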

How the results depend on the processing

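Against the controls, 0 members were called, except GDF15, giving 1 call, in these settings: for ATF4 and MYC with no low-count filter, with a looser sgRNA rule or with target and controls fitted alone, and for MYC also with DESeq2 and without the first control sgRNA. Leaving out single sgRNAs gave 0 to 1 calls for MYC and 0 for the other targets. In the test of the 7 groups 1 member was called, but 0 with a stricter sgRNA rule, at most 10% mitochondrial UMIs (where no MYC sgRNA remained), G1-scored cells alone, or without all ATF4 or all MYC sgRNAs, the last 2 chosen after seeing the data; leaving out single sgRNAs gave 0 (MYC_sgRNA4) to 1. Over these settings the adjusted p for GDF15 ran from 4.71e-05 to 0.613, apart from 2.77e-11 with no low-count filter, a fit that gave no valid statistic for some genes. The 4 members past 2-fold in positive cells were 2 with at most 10% mitochondrial UMIs, 3 in cells with 1 assigned sgRNA (without MDM2) and 4 to 5 elsewhere. Of the 3 genes most like GDF15, 1 stayed among the first 3 by Spearman's rho. No gene of the wider lists was called with DESeq2's scaling. The causes were not tested. No paired analysis was possible because sgRNA numbers of different targets name different guides. MYC's 68 cells and the low counts of CDKN1A limit the precision.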
